A study of Mus musculus with 3 samples.

Results

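Liver-type plasma and acute phase protein genes were described in kidneys of mice given anti-GBM antibody, which binds the glomerular basement membrane and causes glomerulonephritis, an inflammation of the renal filter. The genes were chosen by symbol: the rows of the array whose platform annotation, brought to the current mouse symbol, named Lbp, Saa1, Saa3, Orm1, Hp, Crp, Apcs, Alb, Ttr or Ahsg. All 10 genes were on the array, in 13 of its 16281 rows. The study measured whole-kidney total RNA of BALB/c mice on 3 arrays of 2 colours. On each array, Cy5-labelled RNA of 1 mouse taken 11 days after injection of the antibody was set beside Cy3-labelled RNA pooled from 5 normal animals of the same strain. The labels give no age, sex, antibody dose or later challenge for the mice, and no control-treated group beside the pool. Since the same pool served all arrays, the control is 1 sample, the spread between normal mice was not measured, and dyes were not swapped.

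Plasma proteins of this class are secreted mainly by hepatocytes. In the acute phase response, interleukin-6 and interleukin-1, acting through STAT3, C/EBP factors and NF-kB, raise the transcription of serum amyloid A, haptoglobin, orosomucoid, LPS-binding protein and, in mice, serum amyloid P, while albumin, transthyretin and fetuin A are lowered. Several of these genes are also transcribed outside the liver, among them Saa3 in macrophages, adipocytes and epithelia, and haptoglobin in fat and myeloid cells. In the kidney the proteins themselves arrive with the blood; albumin that passes the filter is taken up by proximal tubule cells through megalin and cubilin.

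All values are log ratios of nephritic kidney over the control pool in the deposited log unit, whose base is not stated, after each array was centred on its median. Values above 0 are read as more RNA in nephritic than in normal kidney; the dye labels make this direction likely, but no source states it for the values. A mean of 1.45, that of Apcs, would be a 2.74-fold difference in base 2 and 28.4-fold in base 10, with 4.28-fold between them for natural logarithms. An exact 0 was treated as a missing ratio. Arrays gave between 10998 and 11930 usable ratios. A ratio carries no level, so how much of any of these RNAs a kidney holds is not known from these data, and in whole-kidney RNA fewer cells of a type and less RNA per cell cannot be told apart. The test throughout was limma's, of the mean over 3 mice against a log ratio of 0, fitted to 8449 features with Benjamini-Hochberg adjustment.

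Of the 10 genes, 7 had a row with a ratio on all 3 arrays and could be tested. Lbp, Saa1, Saa3, Hp and Apcs rose and Alb and Crp fell, so 5 were higher and 2 lower at an adjusted p of 0.05. The remaining 3 genes, Orm1, Ttr and Ahsg, had a ratio on 1 array each. Of all features tested, 43.1% passed, 20.8% as higher and 22.3% as lower. The genes were picked with earlier results known, so no test was made of the group as a whole. The mean log ratios ran from -2.06 for Alb to 1.45 for Apcs.

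**Figure D1:**
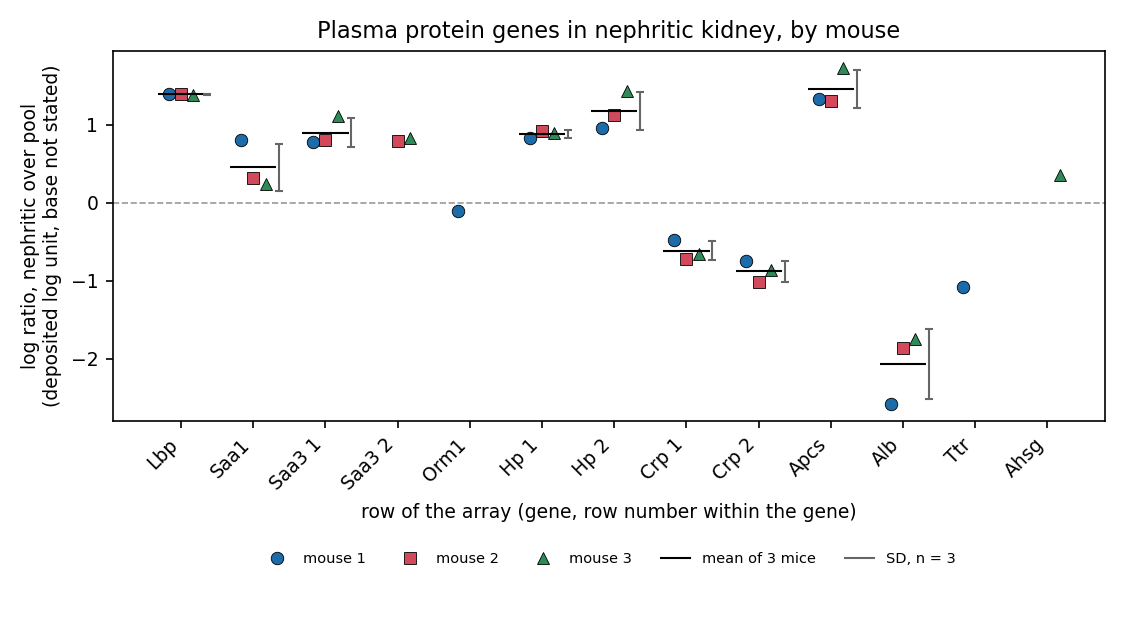
Log ratio of nephritic kidney over the control pool (y axis, deposited log unit) for each of the 13 rows of the 10 genes (x axis), with 1 symbol per mouse, the mean as a black line and the SD over 3 mice as a grey bar. Rows of Lbp, Saa1, Saa3, Hp and Apcs lie above 0 and those of Crp and Alb below 0 in every mouse measured; Orm1, Ttr and Ahsg have 1 point each.

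Among the acute phase proteins that classically rise, Lbp, which hands bacterial lipopolysaccharide to CD14, was the most even over the mice. Its log ratio was 1.39 in mouse 1, 1.39 in mouse 2 and 1.38 in mouse 3. The 3 animals were thus nearly indistinguishable, with a mean of 1.39 ± 0.0063 (SD, n = 3) and an adjusted p of 4.03e-05 (limma). Of the 8449 features, 21 had an SD this small or smaller, Lbp included. The evenness depended on the scale of the arrays: the SD was 0.0959 after arrays were scaled to the same median absolute value, with the mean at 1.39. Lbp ranked 78 from the highest of all features.

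Haptoglobin, Hp, which binds free haemoglobin and is a classical acute phase protein, had 2 rows with ratios on all arrays. One row read 0.83, 0.93 and 0.89 in mice 1, 2 and 3, and the other 0.96, 1.12 and 1.44. The rows gave the same direction in every mouse but differed in spread, with means of 0.88 ± 0.0501 and 1.17 ± 0.243 (SD, n = 3). Averaged, Hp was at 1.03 ± 0.135 (limma adjusted p = 0.000149, 95% interval 0.84 to 1.21). The means of the 2 rows lay 0.291 apart, against a median gap of 0.17 over the 1047 genes with exactly 2 such rows.

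Orosomucoid 1, Orm1, a carrier protein of the same class, had a ratio only in mouse 1, at -0.10, and was listed at exact 0 in mice 2 and 3. Its close relatives gave little more: Orm3 read -0.29 in mouse 1 and -0.52 in mouse 3, and Orm2 was listed at 0 on all arrays. No rise of orosomucoid was seen in the ratios at hand, and none was tested.

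The serum amyloid A genes, which encode apolipoproteins of high density lipoprotein in the acute phase, were higher but by unequal amounts. Saa3, the form made mostly outside the liver, read 0.77, 0.81 and 1.11 in mice 1, 2 and 3 on the row measured throughout. Its mean was 0.90 ± 0.186 (SD, n = 3, limma adjusted p = 0.000372). A second Saa3 row was missing in mouse 1 and read 0.79 and 0.83 in mice 2 and 3, so both rows were positive wherever they were measured. Saa1, a form secreted by the liver, read 0.80, 0.32 and 0.24, with mouse 1 well above the others. Its mean of 0.45 ± 0.307 was the smallest rise of the 5, with an adjusted p of 0.0192 (limma) and a 95% interval of 0.18 to 0.73. It moved to 0.28 without mouse 1, still passing (limma adjusted p between 0.0127 and 0.0222 with a mouse left out).

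Saa2 was not among the chosen genes but is nearly identical to Saa1, and the RefSeq table lists each symbol as an old name of the other, so rows of the pair cannot be assigned with certainty and their probes may share RNA. The 2 Saa2 rows read 2.06, 1.79 and 1.29 and 1.58, 1.53 and 1.00 in mice 1, 2 and 3. Saa2 as a gene stood at 1.54 ± 0.351 (SD, n = 3, limma adjusted p = 0.000209). All 3 rows of the pair were highest in mouse 1 and lowest in mouse 3, while the fully measured Saa3 row was lowest in mouse 1 and highest in mouse 3. The difference Saa3 minus Saa1 was -0.03, 0.49 and 0.87 in mice 1, 2 and 3, a mean of 0.45 ± 0.454, no larger than its own spread. With 3 mice, an exact sign-flip test, two-sided, cannot give a p under 0.25, so such differences are given as values. Saa4, the form that does not respond in the acute phase, read -1.05 in mouse 1 and -0.18 in mouse 3 and was listed at 0 in mouse 2.

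**Figure D2:**
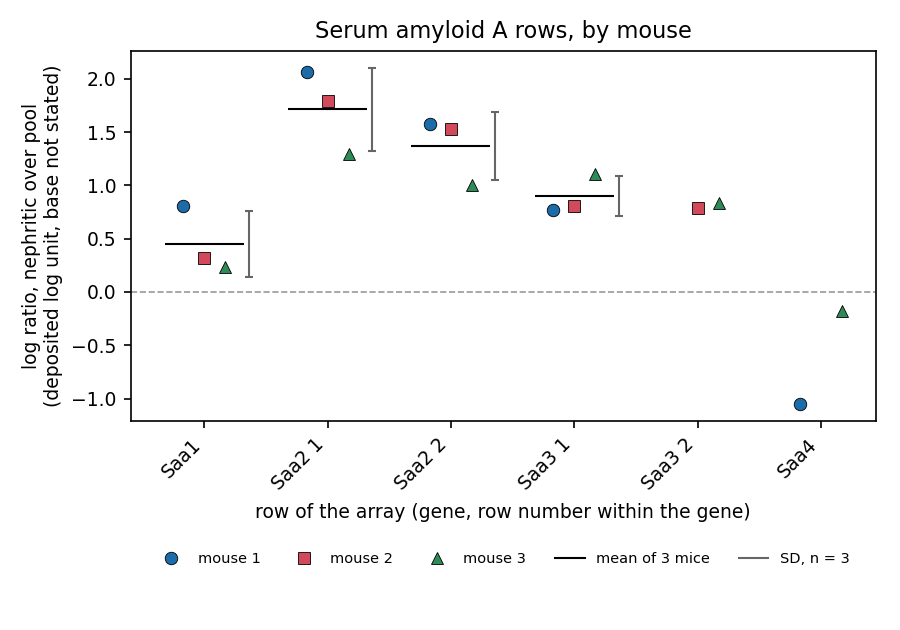
Log ratio (y axis, deposited log unit) of the rows of the 4 serum amyloid A genes (x axis), with 1 symbol per mouse, the mean as a black line and the SD over 3 mice as a grey bar. Rows of Saa1 and Saa2 are highest in mouse 1 and lowest in mouse 3, the first Saa3 row is highest in mouse 3 at 1.11, and Saa4 lies below 0 in both mice measured.

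The pentraxins went in opposite directions. Apcs, serum amyloid P, the main acute phase pentraxin of mice, read 1.33, 1.30 and 1.73 in mice 1, 2 and 3. Its mean of 1.45 ± 0.241 (SD, n = 3) was the highest of the 10 genes and ranked 69 from the highest of all features (limma adjusted p = 0.000108, 95% interval 1.22 to 1.69). Crp, C-reactive protein, which is a minor reactant in mice although it is a major one in humans, had 2 rows, at -0.48, -0.72 and -0.65 and at -0.75, -1.02 and -0.87. Every one of these 6 values was below 0, and in both rows mouse 2 was lowest and mouse 1 nearest to 0. The gene mean was -0.75 ± 0.126 (SD, n = 3, limma adjusted p = 0.000448). Within each mouse, Apcs exceeded Crp by 1.94, 2.17 and 2.49, a mean of 2.20 ± 0.277.

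Albumin, Alb, the chief carrier protein of plasma and a gene that the acute phase lowers in liver, gave the lowest values of the group. It read -2.57, -1.86 and -1.75 in mice 1, 2 and 3, mouse 1 being lowest. The mean of -2.06 ± 0.449 (SD, n = 3) ranked 7 from the lowest of 8449 features, and its adjusted p was 0.000144 (limma, 95% interval -2.43 to -1.69). It would be a 4.17-fold difference in base 2, 7.85-fold for natural logarithms and 115-fold in base 10. Albumin was also among the more variable features: 98.7% of features had an SD at or below its own. The value rests on 1 row, without a second row of the gene to set beside it. Without mouse 1 the mean was -1.80, still far below 0.

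Transthyretin, Ttr, which carries thyroid hormone and retinol-binding protein, had a ratio only in mouse 1, at -1.08. Fetuin A, Ahsg, an inhibitor of calcification, had one only in mouse 3, at 0.36. Both were listed at 0 on the other arrays, so neither could be tested. Of the 39 values in the 13 rows, 7 were exact 0, of which 6 fell on Orm1, Ttr and Ahsg and the other on the second Saa3 row.

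**Figure D3:**
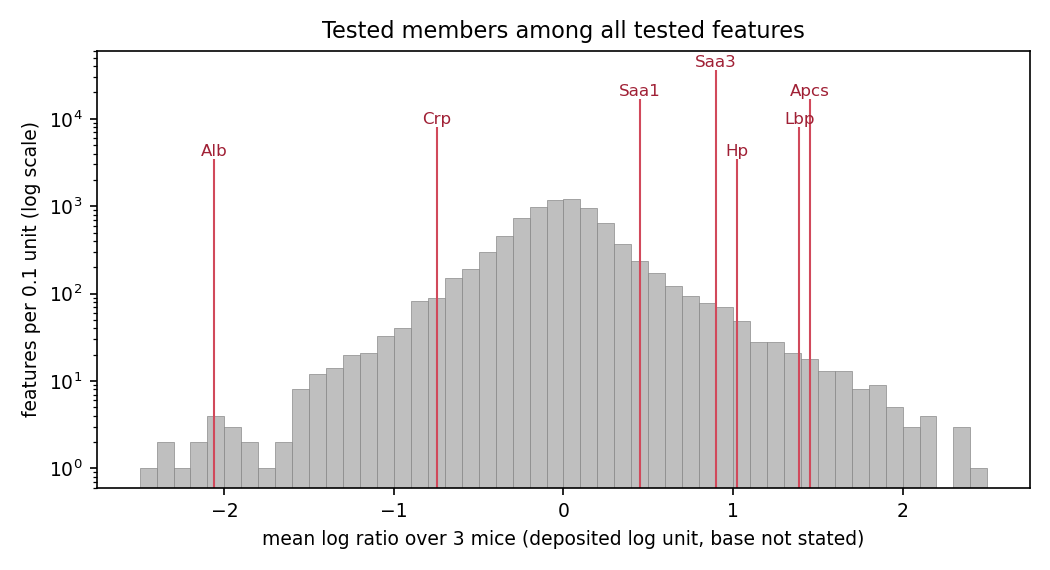
Histogram of the mean log ratio over 3 mice of the 8449 tested features (x axis, deposited log unit; y axis, features per bin on a log scale), with red lines at the 7 tested genes. Alb lies at -2.06 in the thin lower tail, Apcs and Lbp at 1.45 and 1.39 in the upper tail, and Saa1 at 0.45 nearer to the bulk.

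The order of the means, from the highest, was Apcs, Lbp, Hp, Saa3, Saa1, Crp and Alb. Apcs and Lbp overlapped, since Apcs was below Lbp in mice 1 and 2 and above it in mouse 3. Hp and Saa3 overlapped in range as well, at 0.89 to 1.16 and 0.77 to 1.11. Lbp exceeded Saa1 in every mouse, by 0.59, 1.08 and 1.15. The gap between Lbp and Alb was 3.97, 3.25 and 3.13, a mean of 3.45 ± 0.453 (SD, n = 3).

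By the Euclidean distance between values over the 3 mice, the named genes nearest to Apcs were Knstrn at 0.18, Mrc1 at 0.19 and Egr2 at 0.254. Their means were 1.46, 1.51 and 1.40. Nearest to Alb were Capn15 at 0.388, Lhx1 at 0.531 and Lalba at 0.617, with means of -1.92, -2.04 and -2.34. This measure of likeness runs over 3 mice only.

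Promoters are shown for the 5 tested genes that the sequence table holds, because these genes are textbook examples of control by C/EBP, STAT3 and hepatocyte factors, and because they moved in both directions here. Promoters of 6 of the 10 genes were used from the RefSeq table of mouse assembly GRCm38.p6, made from a strain other than BALB/c. The 250 bases before the start were searched on both strands for a C/EBP motif, TTGCNNAA, a STAT motif, TTCNNNGAA, a core of the hepatocyte factor HNF1 site, GTTAAT, and the NF-kB motif. Each line gives the stretch 5′ to 3′ on the gene's strand, with the matches in capitals. They are Saa3 at chr7:46715677-46715926 and Saa1 at chr7:46742981-46743230, both on the minus strand and each with 1 C/EBP match, Apcs at chr1:172895055-172895304 on the minus strand with 1 STAT match, and Alb at chr5:90460620-90460869 on the plus strand with 1 C/EBP match followed by 1 HNF1 core, and Crp at chr1:172697806-172698055 on the plus strand, with no match.
Saa3: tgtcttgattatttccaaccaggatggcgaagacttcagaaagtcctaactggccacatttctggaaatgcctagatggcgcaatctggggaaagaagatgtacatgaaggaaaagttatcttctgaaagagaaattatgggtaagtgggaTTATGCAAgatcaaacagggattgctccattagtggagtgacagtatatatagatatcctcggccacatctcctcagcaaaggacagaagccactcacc
Saa1: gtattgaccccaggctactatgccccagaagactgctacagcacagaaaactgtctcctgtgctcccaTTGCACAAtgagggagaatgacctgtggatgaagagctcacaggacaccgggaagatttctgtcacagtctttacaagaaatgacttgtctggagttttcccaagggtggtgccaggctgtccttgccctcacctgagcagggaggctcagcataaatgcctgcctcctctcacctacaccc
Apcs: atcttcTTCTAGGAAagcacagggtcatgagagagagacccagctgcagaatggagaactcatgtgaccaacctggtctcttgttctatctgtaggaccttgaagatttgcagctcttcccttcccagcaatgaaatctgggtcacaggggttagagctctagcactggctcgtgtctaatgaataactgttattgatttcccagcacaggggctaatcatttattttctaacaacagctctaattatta
Alb: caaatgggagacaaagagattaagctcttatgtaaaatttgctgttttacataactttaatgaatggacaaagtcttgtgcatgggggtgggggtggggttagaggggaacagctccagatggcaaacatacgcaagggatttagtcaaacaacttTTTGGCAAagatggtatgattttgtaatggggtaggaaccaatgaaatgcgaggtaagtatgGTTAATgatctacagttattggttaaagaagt
Crp: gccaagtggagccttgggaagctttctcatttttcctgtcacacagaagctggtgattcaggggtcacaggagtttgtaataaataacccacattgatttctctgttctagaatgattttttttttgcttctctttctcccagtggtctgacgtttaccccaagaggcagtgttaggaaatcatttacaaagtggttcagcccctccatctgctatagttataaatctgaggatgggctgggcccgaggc

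The C/EBP match lies 99 to 92 bases before the start in Saa3, 182 to 175 in Saa1 and 94 to 87 in Alb. The motif was thus found upstream of 2 genes that rose and 1 that fell. A C/EBP match was also found for Ahsg, 32 to 25 bases before its start, and Crp held none of the 4 motifs in this window. The STAT match of Apcs lies 244 to 236 bases before the start, and the HNF1 core of Alb 32 to 27 bases before it. No matches overlapped. Of the 32851 promoters in the table, 9.56% held the C/EBP motif, 7.02% the STAT motif, 6.43% the HNF1 core and 7.25% the NF-kB motif, which matched none of the 6 promoters. A match is a description of letters, and no binding was measured.

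Genes of the signals that drive the acute phase response were mostly higher. Of 36 tested cytokines, receptors and transcription factors of this response, 19 rose, 5 fell and 12 did not pass, with a median of 0.31, against 20.8% higher, 22.3% lower and a median of -0.0081 over all features. Interleukin-6, Il6, the chief inducer, read 1.85, 1.82 and 1.94 in mice 1, 2 and 3. Its mean of 1.87 ± 0.064 (SD, n = 3) had an adjusted p of 3e-05 (limma). Osmr, a receptor chain for oncostatin M, stood at 1.87, Il11 at 1.19, Il1b at 1.09, the interleukin-1 antagonist Il1rn at 1.02 and the TNF receptor Tnfrsf1b at 0.66. The interleukin-6 receptor chains Il6ra and Il6st rose by 0.33 and 0.35, but on unequal rows: tested singly, 1 row of Il6ra was at -0.0246 and 1 row of Il6st at 0.0357, and neither passed (limma adjusted p = 0.853 and 0.765). Il6ra also lost its call without mouse 3 (0.30, limma adjusted p = 0.0864). Tnf, at 0.11, did not pass (limma adjusted p = 0.265).

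Among the transcription factors of this list, Stat3 rose by 0.62, Cebpb by 0.79, Cebpd by 0.50 and the NF-kB subunits Relb and Rela by 1.03 and 0.34, of which Rela did not pass without mouse 2 (0.25, limma adjusted p = 0.0832). Socs3, a STAT3 target that dampens the signal, was at -0.20 and did not pass (limma adjusted p = 0.113), though it passed without mouse 1 (-0.30, adjusted p = 0.012). The 5 that fell were the clock factor Dbp at -0.52, Stat5a at -0.37, the hepatocyte and proximal tubule factor Hnf4a at -0.32, the receptor chain Lifr at -0.32 and Stat5b at -0.29. Stat5b and Lifr lost their calls without mouse 2 or without mouse 3 (Stat5b at -0.23 and -0.23, Lifr at -0.26 and -0.33). Lifr was at -0.15 and did not pass (limma adjusted p = 0.142) where rows with ratios on at least 2 arrays were taken, and Stat5b did not pass without centring (limma adjusted p = 0.0523).

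Of 26 tested receptors and partners of these plasma proteins, which include enzymes and transport genes of their uptake such as Hmox1, Dab2 and Clcn5, 17 rose and 4 fell, with a median of 0.50, against 20.8% higher and 22.3% lower of all features. Of those that rose, 6 (Fcgr1, Fcgr3, Fcer1g, C1qa, C1qb and C1qc) also count among the macrophage markers given further on, of which 24 of 27 rose. Tlr4, which signals for the lipopolysaccharide that Lbp delivers, read 0.64, 0.63 and 0.43 (mean 0.57 ± 0.123, SD, n = 3). Its 2 rows differed, and tested singly 1 of them was at 0.17 and did not pass (limma adjusted p = 0.241). Cd14 was listed at 0 on all arrays. Tlr2 and Fpr2, receptors reported to respond to serum amyloid A, rose by 1.44 and 0.82. Cd163, the macrophage receptor for haptoglobin bound to haemoglobin, read 0.70, 1.32 and 1.10, and the haem-degrading enzyme Hmox1 0.34, 0.76 and 0.99; both were lowest in mouse 1. Fc receptors and C1q, which pentraxins can engage, were higher too, with Fcgr3 at 1.26, Fcgr1 at 1.03, C1qc at 1.32, C1qa at 1.22, C1qb at 1.06 and Fcer1g at 0.97, while the inhibitory Fcgr2b, at -0.10, did not pass. Its 2 rows lay on opposite sides of 0: tested singly, 1 was at -0.39 and passed (limma adjusted p = 0.00441) and the other was at 0.19 and did not (limma adjusted p = 0.0738).

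Of the receptors that take up filtered albumin, cubilin, Cubn, fell, at -0.83, -0.95 and -0.86 in mice 1, 2 and 3 (mean -0.88 ± 0.0644, SD, n = 3, limma adjusted p = 0.000164). Cubn, like Hnf4a above, also counts among the proximal tubule markers given further on, of which 15 of 21 fell. Megalin, Lrp2, was measured on 1 row in mice 1 and 2, at -1.61 and -1.38, and was not tested. Their adaptor Dab2 was at -0.20 with an adjusted p of 0.0489 (limma), a call lost without any 1 of the mice (-0.17, -0.21 and -0.21 without mice 1, 2 and 3). The call was also lost without centring, with scaling and with ratios on at least 2 arrays. Tested singly, 1 row of Dab2 was at -0.35 and passed (limma adjusted p = 0.00664). The other was at -0.05 and did not (limma adjusted p = 0.606). Fcgrt, the receptor that recycles albumin, was at 0.17 and did not pass (limma adjusted p = 0.08). The lipid receptor Cd36 and the hepatocyte lectin Asgr1 also fell, to -0.88 and -0.69.

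Other liver-type plasma proteins showed no common direction. Of 93 listed, 74 were on the array, 7 of them without any ratio, and 46 were tested. Of these, 14 rose, 12 fell and 20 did not pass, with a median of 0.0184. Over all features, 20.8% were higher and 22.3% lower, with a median of -0.0081. The highest were the copper carrier Cp at 1.74, the complement regulator Cfi at 1.61 and Saa2 at 1.54, followed by Lcn2 at 1.22, C4b at 1.21, the hyaluronan-binding chain Itih3 at 1.20, Apoc2 at 0.98 and C1ra at 0.93. The lowest were the coagulation chain F13b at -1.55, the mannose-binding lectin Mbl2 at -1.30, the protease inhibitor Serpina1e at -1.03, the corticosteroid carrier Serpina6 at -0.85, afamin, Afm, a relative of albumin, at -0.84, antithrombin, Serpinc1, at -0.71, Apoa2 at -0.64 and Mbl1 at -0.62. Alpha-fetoprotein, Afp, another relative of albumin, was at -0.16 and did not pass (limma adjusted p = 0.0896). The fibrinogen chain Fga rose by 0.49, and the haem carrier Hpx, at -0.09, did not pass.

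**Figure D4:**
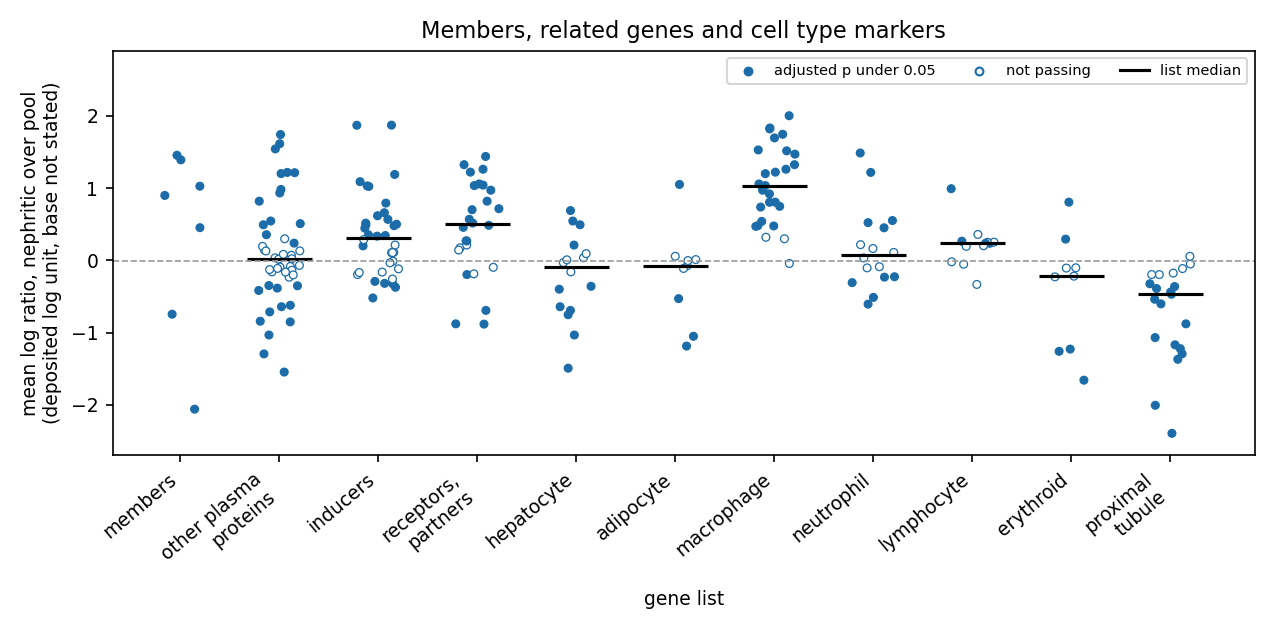
Mean log ratio over 3 mice (y axis, deposited log unit) of each tested gene in the 7 tested plasma protein genes, 3 related gene lists and 7 lists of cell type markers (x axis); filled points passed the test, black lines are list medians and the dashed line is the median of all features. Macrophage markers have the highest median, 1.03, and proximal tubule markers the lowest, -0.47, while other plasma proteins and hepatocyte markers centre near 0.

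Marker genes of cell types that can make or handle these proteins moved unequally. The counts below stand beside 20.8% higher and 22.3% lower over all features. Of 27 tested macrophage and monocyte markers 24 rose and 0 fell, with list means of 1.12, 0.95 and 1.06 in mice 1, 2 and 3; 1 listed marker, Cd14, had no ratio. Farthest from 0 were Clec7a at 2.00, Ctss at 1.83 and Trem2 at 1.82. Of 21 tested proximal tubule markers 15 fell, 0 rose and 6 did not pass, with list means of -0.81, -0.65 and -0.71. The lowest were Slco1a6 at -2.39, Dpys at -2.01 and Fbp1 at -1.37. Apart from the 21 tested, 6 listed proximal tubule markers had no ratio on any array. Neutrophil markers were mixed, with 5 of 16 higher and 5 lower. S100a9 stood at 1.48, Lcn2, which is also in the list of other plasma proteins, at 1.22 and the granule protease Ctsg at -0.61. Adipocyte markers rose in 1 and fell in 3 of 9, with Scd2 at 1.05, Lpl at -1.19 and Gpd1 at -1.05, and the defining marker Adipoq had a ratio only in mouse 3, at 0.19. Of 16 tested hepatocyte markers outside the 10 genes, 4 rose. They were Ugt2b5 at 0.69, Apoh at 0.54, Fga at 0.49 and the bile acid transporter Slc10a1 at 0.21. The call of Slc10a1 was near the threshold (limma adjusted p = 0.0487). The 7 that fell included the bile acid enzyme Baat at -1.49, Serpina1e at -1.03 and Fabp1 at -0.75. Of the 16, 6 also stand in the list of other plasma proteins, Fga, Apoa2 and Serpina1e among them, and Asgr1 in that of the partners; Apoa1 was listed at 0 on all arrays. Lymphocyte markers rose in 4 of 12 and fell in 0, with Cd8a at 0.99, Cd5 at 0.26, Cd4 at 0.24 and Ighm at 0.24. Igkc at 0.36, Cd22 at -0.33 and the second CD8 chain Cd8b1 at -0.05 did not pass. Cd22 did pass without mouse 1 (-0.44, limma adjusted p = 0.00957) and Igkc without mouse 3 (0.48, limma adjusted p = 0.035). A further 5 lymphocyte markers on the array had no ratio. Erythroid markers rose in 2 and fell in 3 of 9. Hbb-b2 rose by 0.80 and Alas2 by 0.29, while Car1 was at -1.66, Klf1 at -1.26 and Slc4a1 at -1.23. The part of these cell types in the ratios of Lbp, Saa3, Hp, Apcs, Crp and Alb was not tested.

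Keeping exact 0 values as ratios changed which of the 10 genes passed. Lbp, Hp, Apcs and Crp still passed, while Alb, Saa1 and Saa3 did not (limma adjusted p = 0.0631, 0.233 and 0.129). With exact 0 kept the array medians are 0, so this setting also takes away the centring. The Alb and Saa1 ratios were -2.04 and 0.47, the same as without centring. Saa3 moved to 0.73, because the 0 of its second row then entered the mean. In that setting Orm1, Ttr and Ahsg had means of -0.03, -0.36 and 0.13 and did not pass. Among the other genes named above, Saa2, Apoc2, C1ra, Mbl2, Serpina6, Afm, Serpinc1, Apoa2, Cebpb, Cebpd, Stat5a, Stat5b, Rela, Hnf4a, Lifr, Il6ra, Il6st, Fga, Tlr4, Cd163, Hmox1, Fcgr3, Fcgr1, C1qb, Cubn, Dab2, Cd36, Asgr1, Baat, Fabp1, Ctsg, Il1rn, Tnfrsf1b, Lpl, Clec7a, Slc4a1 and Fbp1 lost their calls there too, while Il6, Stat3, Fpr2, Cp, Cfi and F13b kept theirs. Osmr, Il11, Trem2, S100a9 and Cd8a kept their calls at smaller ratios there, 1.26, 0.60, 0.87, 0.97 and 0.53. Ugt2b5, Apoh, Slc10a1, Cd4, Cd5, Cd8b1, Ighm, Hbb-b2, Alas2 and the genes nearest to Apcs and Alb were not followed in this or the other settings. Leaving out each mouse in turn kept all 7 calls among the 10 genes. Without moderation, a one-sample test of the 3 ratios passed none of the 7 after adjustment, with adjusted p-values from 0.0541 for Lbp to 0.23 for Saa1, and 6 of them at an unadjusted p under 0.05.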

How the data were processed

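Per the labels, each array held Cy5-labelled kidney RNA of 1 nephritic mouse and Cy3-labelled RNA of the shared control pool; the 3 arrays name different mice and were taken as replicates 1 to 3. The deposited values are log ratios, 1 column per array, from -2.89 to 3.27 and with a column median of 0 on each array. No source used here gives the scanner, the normalization, the log base or the direction, so scale and direction stay unknown. Exact 0 (26.7 to 32.4% of values) was treated as missing. Arrays were centred on the median of the other values (0.0151 to 0.0171).

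Of the rows, 13738 had 1 gene symbol in the platform annotation (for 13694 of them the RefSeq table gave the current one), 52 had several and 2491 none. Rows with a ratio on all 3 arrays were averaged per gene, which gave 8449 features. Limma 3.58.1 (R 4.3.3) tested each mean against 0 (lmFit and eBayes, intercept only, two-sided, Benjamini-Hochberg adjustment over all features, threshold 0.05; prior SD 0.134 with 4.85 prior and 2 residual degrees of freedom). Intervals are at 95% from the moderated error. The script was tested on simulated data. The test leaves out the spread between normal mice and any dye bias, and the number of arrays limits the precision.

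The 10 genes and all gene lists were chosen with earlier results of these data known. Named beside the 10 genes were up to 8 passing members of the other plasma protein, inducer and partner lists in each direction, fixed binding partners and inducers, and the markers farthest from 0 in each cell type list; other members with smaller values, and the marker genes without ratios, were chosen with their values in view. The alternatives left out each mouse, the centring, or the least variable 20% of features by SD; scaled the arrays to 1 median absolute value; kept exact 0; accepted 2 ratios; tested single rows; or used array weights, a robust prior or no moderation. Promoters came from RefSeq, GRCm38.p6. No scanner files were used here.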

Additional observations from a re-analysis of the deposited data

How the results depend on the processing

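The number of the 10 genes called, 5 higher and 2 lower, was the same without centring, with scaling, with rows tested singly, with ratios on at least 2 arrays, with a robust prior, with array weights and with each mouse left out. Leaving out the features with the lowest SD removed Lbp from the test and left 4 higher. That cut was made on the same SD that the test uses. Its adjusted p-values became implausibly small for 3 mice, such as 1.53e-75 for Alb (limma), so its calls are no check on the main fit. With exact 0 kept as ratios, 3 were higher and 1 lower, and over all features 549 were higher and 437 lower of 13241 tested, against 1755 and 1883. The unmoderated one-sample test of the 3 ratios, with 2 degrees of freedom, called 0 higher and 0 lower among the 10 genes and 0 and 0 over all features; at an unadjusted p under 0.05 it gave 4 and 2 of the 10 genes and 1523 and 1537 features, against 5, 2, 2099 and 2262 for limma. Its adjusted p for the 7 genes ran from 0.0541 for Lbp to 0.23 for Saa1. With each mouse left out, the features called ran from 1096 to 2017 higher and from 1106 to 2176 lower, both lowest without mouse 3. Which direction held more features turned without centring (1863 higher, 1730 lower), with exact 0 kept and without mouse 2 (1348 and 1310). Of the 74 genes followed by name and with a call, all 74 lost it in the unmoderated test, 40 with exact 0 kept and 4 at most with any mouse left out. The only reversal among them in the settings run was 1 row of Il6ra, tested singly, at -0.0246 and not passing (limma adjusted p = 0.853) against 0.33 for the gene. Followed genes without a call gained one in some settings, most often with array weights, where Fcgrt, Cd22, Socs3 and Hpx passed. Exact 0 kept also brought rows at 0 on all arrays into limma's prior and the adjustment, and took away the centring. No paired analysis was possible because the arrays form 1 group. Signal over background was not analysed here, so a ratio of a dim row cannot be told from one of a bright row.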

Other observations

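Rows with neighbouring numbers on the array lay closer to 0 than the rows of Alb and Lbp, and on the other side of 0 for Apcs in the median; this did not hold for 1 row each of Crp and Hp or for Saa1. Within 8 row numbers of the Alb row, 12 rows had a ratio on all arrays, with a median of 0.13 and a range of -0.48 to 0.67, against -2.06 for Alb itself. The 12 measured neighbours of the Lbp row had a median of 0.03 and a highest value of 0.39, against 1.39. The 9 neighbours of the Apcs row had a median of -0.29, with 2 at -1 or less, against 1.45. Around the 2 Crp rows, at -0.61 and -0.88, the neighbours ran from -0.43 to 0.69 and from -0.73 to 0.40, with medians of -0.09 and -0.07, so 1 neighbour range reached farther from 0 than the row itself. Around the 2 Hp rows, at 0.88 and 1.17, they ran from -0.67 to 1.17 and from -0.87 to 0.72. The Saa1 row, at 0.45, had 5 measured neighbours with a median of 0.28 and a highest value of 1.43. These neighbours were looked at after the values of the genes were seen.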
